A study of Mus musculus with 76 samples.

Results

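Gm19220 and Lars2 were the pair of gene rows that took up the most reads in single interneurons of the newborn mouse hippocampus. They are 2 of 35825 rows of the count table, and they were chosen by a measured value, their median share of a cell's counts over 62 cells, the highest and the next highest of all rows. The cells were medial ganglionic eminence (MGE) derived interneurons of the dorsal CA1 pyramidal layer, marked by Nkx2.1 Cre:Ai14 TdT in all groups and taken at postnatal day 4. Each cell was sampled by Patch-seq, in which the cell's content is drawn into a patch pipette in an acute slice, copied to cDNA and sequenced, here as a Nextera XT library. The groups were female and male mice with GPHN WT or with GPHN S268/270A (Mut), in which serines 268 and 270 of gephyrin are replaced by alanine. Gephyrin is the scaffold protein under inhibitory synapses.

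The labels describe 76 cells and name no animal, litter or batch. The authors' quality filter kept 67 cells and left out 9, and 5 of the kept cells carried a contamination mark. The remaining 62 cells were WT female (9), Mut female (19), WT male (19) and Mut male (15). They held 2946456 to 12070780 counts each, with a median of 6353179. Of 13 MGE interneuron markers 8 reached 10 counts per 1000000 (CPM) in at least 50% of these cells, led by Gad1, the enzyme that makes the transmitter GABA, with a median of 513 CPM. Cells of a group may share an animal, so for tests the cells of a group were added up to 1 sum.

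Gm19220 is annotated as a processed pseudogene, a copy of a spliced mRNA that was reinserted into the genome and that encodes no protein. Lars2 encodes the mitochondrial leucyl-tRNA synthetase, the nuclear-encoded enzyme that charges mitochondrial tRNA with leucine so that ribosomes in the mitochondrion can place that amino acid. Its cytosolic counterpart is encoded by a separate gene, Lars. It is a housekeeping enzyme that works beside the mitochondrial synthetases of the other amino acids.

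The sequences of both rows are shown first because each holds a stretch that other transcripts share, which bears on how reads can be assigned. In the GENCODE M21 annotation of GRCm38, Gm19220 (ENSMUSG00000113337.1) is a single exon of 803 bases on the plus strand of chromosome 12, from 40893485 to 40894287. It holds an unbroken run of 33 C, printed in capitals within its surroundings at chr12:40893676-40893798.

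Gm19220 stretch: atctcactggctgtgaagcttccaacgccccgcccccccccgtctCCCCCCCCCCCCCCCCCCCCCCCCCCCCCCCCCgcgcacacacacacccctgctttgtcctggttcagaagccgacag

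Of the 141767 annotated transcripts, 4 (0.00282%) held a run of 31 or more C or G. The length of 31 is the default word length of kallisto, the program the authors used, and the setting they chose is not given in the sources used here. Besides Gm19220 these were Zrsr1, Grip2 and Gm26822. Zrsr1, a U2AF-related splicing factor, held 38 C in the 5′ UTR (chr11:22973177-22973214). Grip2, a PDZ scaffold protein of synapses, held 33 G in the 5′ UTR, on the minus strand (chr6:91827077-91827109). Gm26822 is a long noncoding RNA that has no row under that symbol. Of the 771 distinct 31-base words of Gm19220, 3 occurred in transcripts of another gene, and those genes were these 3.

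Lars2 (ENSMUSG00000035202.8) spans chr9:123366927-123462666 on the plus strand, and its main transcript Lars2-201 has 21 exons and 3894 bases. Of the 3864 distinct 31-base words of that transcript, 42 occurred in another gene, all between transcript positions 3172 and 3329 in the 3′ UTR of exon 21. The genes were AA474408 and Gm15564, neither of which has a row under that symbol. The reference searched held no nuclear ribosomal RNA sequence. Whether this stretch also matches ribosomal RNA was therefore not tested. Over all 9 annotated transcripts of Lars2, whose counts make up the row together, 103 of 11160 words occurred in 58 other genes, 33 of which have a row. A 72-base stretch of this UTR (chr9:123462048-123462119) matched a Gm15564 transcript at 98.6% identity, and 30 bases of it (chr9:123462059-123462088) are printed in capitals as the part shared.

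Lars2 shared site: GCGTTGGATTGTTCACCCACTAATAGGGAA

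The 2 rows shared no 31-base word with each other, and no Lars2 transcript held a run of 31 or more C or G. Where along a transcript the reads lay was not tested, since the tables give 1 value per row.

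Gm19220 took a median of 2.28% of a cell's counts over the 62 cells, from 0.373% in the lowest cell to 11.6% in the highest. Lars2 took a median of 1.63%, from 0.168% to 20.3%. These levels chose the rows and are given as a description. The next rows were Tuba1a, a tubulin of growing neurites, at a median of 1.17%, and the ubiquitin gene Ubb at 0.784%. Further rows among the 10 highest included Tmsb4x, Actg1, Calm2, Tubb2a and Ppia, at 0.521% to 0.344%. Gm19220 was the highest row in 37 cells and Lars2 in 9 cells, so one of the pair led in 46 of 62. Both together took a median of 4.05% of the counts, at least 10% in 13 cells and under 1% in 6.

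Per transcript length the order was different. In the deposited TPM values, which divide by length, Gm19220 held a median of 5.30% of the TPM total and led in 55 of 62 cells. Lars2 held 0.548%, came ninth by its median and led in 0 cells, with Tmsb4x, Tuba1a, Ubb, Ppia, mt-Atp6 and mt-Co3 among the rows between the 2. Gm19220 thus came first on both scales, while Lars2 went from second place by counts to ninth per length.

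Both rows were lower in Mut cells than in WT cells at the median, in females and in males, with ranges that overlapped. The shares also fell with the number in the cell's title, whose meaning is not given (rho -0.68 for Gm19220, -0.63 for Lars2). Of the 62 cells, WT cells had numbers from 56 to 121 and Mut cells from 65 to 132. The part of this number in the genotype difference was not tested. In females the share of Gm19220 ran from 0.806% over a median of 2.82% to 11.6% in WT cells, and from 0.387% over 1.91% to 8.52% in Mut cells. Of 19 Mut female cells 13 lay below the WT female median, and 2 of 9 WT cells lay above the highest Mut cell. In males the share of Gm19220 ran from 0.418% over a median of 3.19% to 11.6% in WT cells, and from 0.373% over 1.55% to 6.84% in Mut cells. Here 11 of 15 Mut cells lay below the WT median and 4 of 19 WT cells above the highest Mut cell. The log2 ratio of the medians, Mut over WT, was -0.56 in females and -1.04 in males.

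Lars2 showed the same order with a clearer upper edge in males. In females its share ran from 0.387% over a median of 2.50% to 6.59% in WT cells, and from 0.220% over 1.31% to 4.75% in Mut cells. In males it ran from 0.168% over 2.16% to 20.3% in WT cells, and from 0.214% over 1.01% to 2.23% in Mut cells. Of the Mut male cells 14 of 15 lay below the WT male median, and 9 of 19 WT male cells lay above the highest Mut male cell. In females 14 of 19 Mut cells lay below the WT median. The lower ends of the groups did not separate, since the lowest cell of all was a WT male cell. The log2 ratio of the medians was -0.93 in females and -1.10 in males.

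**Figure D1:**
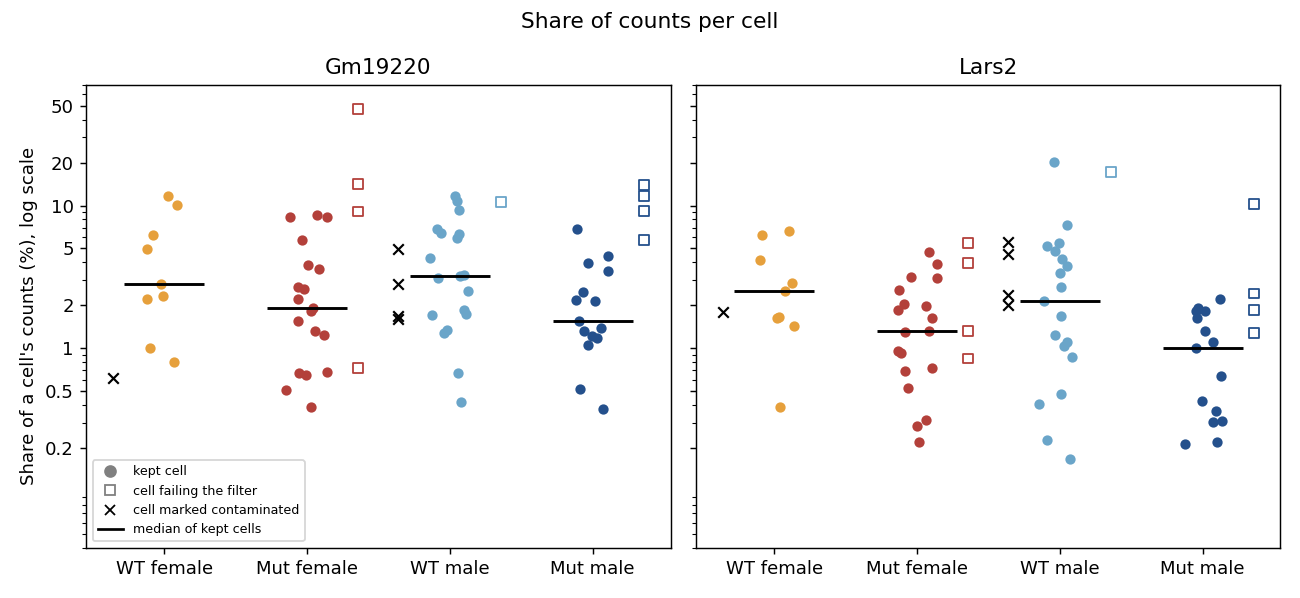
Share of a cell's counts (percent, log axis) taken by Gm19220 and by Lars2 in each labelled cell, by genotype and sex. Filled points are the 62 kept cells with their median as a bar, open squares are the 9 cells that failed the quality filter and crosses the 5 cells marked contaminated; the Mut medians lie below the WT medians in both sexes, and 8 of 9 failing cells lie above 5% for Gm19220.

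Summed over cells, Gm19220 made up 3.70% of the WT female and 2.43% of the Mut female counts, and 3.73% of the WT male and 2.01% of the Mut male counts. Lars2 made up 2.59% and 1.53% in females and 2.71% and 0.953% in males. Exact binomial intervals at 95% were within 0.00472 percentage points of these values. They cover the sampling of reads only. PCR copies of 1 molecule are counted separately where no molecular identifier is used, so the error in the number of molecules is not covered. Single cells carried a large part of a sum: WT male cell 3 alone held 22% of the Lars2 counts of its group, WT female cell 3 held 21.5% of its group's Gm19220 counts.

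Neither row passed the genotype test. In edgeR's quasi-likelihood test on the 4 sums, with sex as a term and the counts scaled by TMM, Gm19220 stood at 42814 CPM in WT and 23439 CPM in Mut females and at 34239 and 19759 CPM in males. Its log2 fold change was -0.83 (SE 0.19), with an unadjusted p of 0.00798 and an adjusted p of 1 in edgeR. Lars2 stood at 30017 and 14704 CPM in females and 24923 and 9361 CPM in males, a log2 fold change of -1.22 (SE 0.22) with an unadjusted p of 0.00311 and an adjusted p of 1 in edgeR. The test called 0% of 16435 genes, and 1.84% were lower and 1.66% higher in Mut at an unadjusted p under 0.05. Being lower in both sexes is common, at 25% of all genes tested. The lower Lars2 in Mut was known from earlier results of these data when it was chosen, so these values describe it and add no independent evidence.

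DESeq2 gave the same fold changes with larger errors. Its adjusted p was 0.876 for Gm19220 and 0.619 for Lars2, and it called 666 other genes (367 higher and 299 lower in Mut). Over all alternatives with either tool the log2 fold change ran from -0.95 to -0.59 for Gm19220 and from -1.53 to -0.89 for Lars2, and the adjusted p from 0.377 to 1 for each. When each cell was left out in turn, the log2 ratio of the Gm19220 share in the female sums (-0.60) moved to between -0.81 and -0.38, the latter without WT female cell 3. That of Lars2 in the male sums (-1.51) moved to between -1.65 and -1.19, the latter without WT male cell 3. With 1 sum a group, less RNA per cell and a different mix of sampled cells cannot be told apart.

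The other mitochondrial synthetases gave no call for genotype, where edgeR called 0% of all 16435 genes tested. All 21 other members of the list, which includes the subunits Qrsl1, Gatb and Gatc of the mitochondrial glutaminyl-tRNA amidotransferase, were tested and 0 passed in edgeR. Of these 10 were higher and 4 lower in both Mut sums, and 7 differed in sign between the sexes, where 25.1% of all genes tested were higher and 25% lower in both. Their median log2 fold change was 0.73, against -0.00 over all 16435 genes. At least 2-fold in both sexes, 6 were higher and 1 was lower, where the background was 5.11% higher and 3.77% lower. Most of these rows were near the limit of detection. Only Gars and Kars, which also supply the glycyl- and lysyl-tRNA synthetases of the cytosol, and Lars2 itself reached 10 CPM in at least 50% of the cells.

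Per length Lars2 stood far above every other member of the list. Its median was 5480 TPM (709 to 78264), while Gars had a median of 161 TPM (0.269 to 775) and Kars of 58.8 TPM (0.309 to 615). Cars2, the cysteinyl-tRNA synthetase, had a median of 5.12 TPM, and the 18 rows below it had medians of at most 0.931 TPM. The lowest cell for Lars2 lay above the median of each of them and above every cell of 19 of the 21. Over cells, the median Spearman rho of these rows with Lars2 was -0.07.

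**Figure D2:**
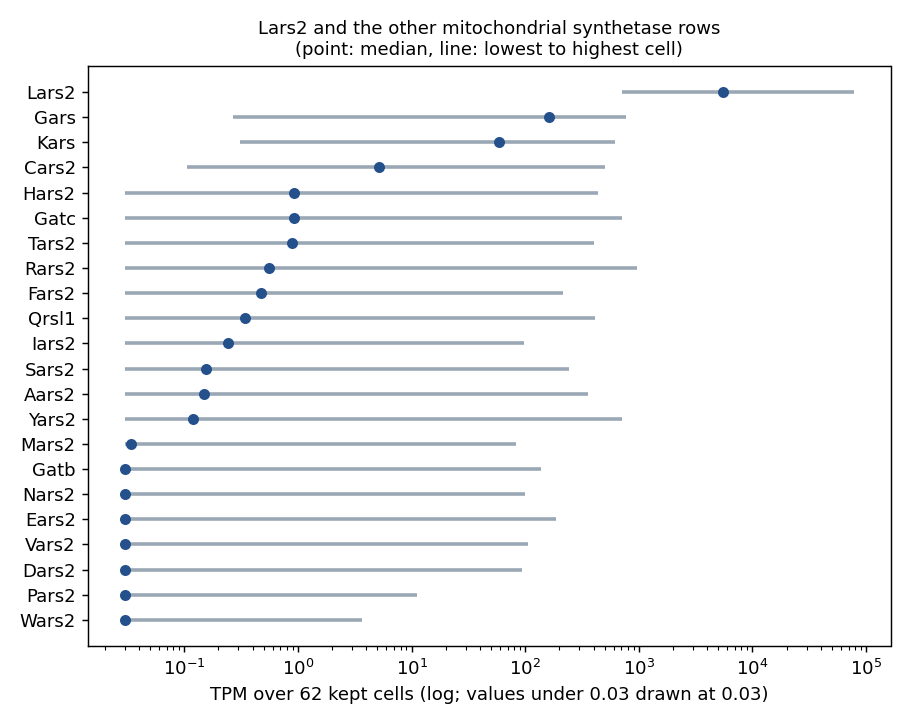
Level in TPM (log axis, values under 0.03 drawn at 0.03) of the 22 rows of the mitochondrial aminoacyl-tRNA synthetase list over the 62 kept cells, with the median as a point and a line from the lowest to the highest cell. Lars2 has a median of 5480 TPM, Gars of 161 TPM and Kars of 58.8 TPM.

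Cytosolic synthetases and mitochondrial translation factors were likewise without a call, where edgeR called 0% of all genes tested. Of 21 cytosolic rows 20 were tested, of which 7 were higher and 3 lower in both Mut sums (25.1% and 25% over all genes tested), with a median log2 fold change of 0.16. Nars, Sars, Eprs and Aars led the list with medians of 375, 345, 234 and 159 CPM, and Lars, the cytosolic leucyl-tRNA synthetase, had a median of 0.954 CPM. The summed level of this list had a rho of -0.58 with the Lars2 level over the 62 cells. Of 13 mitochondrial translation factors 5 were higher and 2 lower in both Mut sums, beside the same 25.1% and 25%, with a median log2 fold change of 0.24, led by the elongation factor Tufm at a median of 95.6 CPM. The 13 proteins encoded in mitochondrial DNA, the products that Lars2 serves, had a median log2 fold change of -0.04. Of these 0 were higher and 2 lower in both sexes, beside 25.1% and 25% of all genes tested, and 11 differed in sign between the sexes.

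The 9 cells that the quality filter left out were rich in Gm19220. Its median share there was 10.5% (0.723% to 47.7%), against 2.28% in the 62 kept cells. The median share of Lars2 was 2.42% (0.846% to 17.1%), against 1.63%. Both rows together took at least 10% of the counts in 7 of 9 failing cells and in 13 of 62 kept cells. The filter's criterion is not given in the sources used here, and these rows may have entered it through another measure.

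Depth differed between the same cells. Of the failing cells 8 of 9 held under 3000000 counts, as did 1 of 62 kept cells, and their median was 2102311. In counts rather than shares, the failing cells held a median of 190793 for Gm19220 (45188 to 428913), inside the range of the kept cells (median 153454, 30432 to 725515). Their Lars2 counts had a median of 82543, from 7613 to 450528, and the kept cells of 95646, from 14788 to 720520. Within Mut females the median Gm19220 count was 263368 in the 4 failing and 98898 in the 19 kept cells, and within Mut males 129736 in the 4 failing and 124764 in the 15 kept cells. The ranges overlapped in both sexes. What part depth has in the shares was not tested.

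The failing cells differed in which row dominated. Mut female cell 4, with the smallest total of 899625 counts, had 47.7% Gm19220 and 0.846% Lars2. Mut male cells 15 and 11 had 14% and 11.6% Gm19220 with 1.27% and 2.42% Lars2. WT male cell 2, the only WT cell that failed, had 10.5% Gm19220 and 17.1% Lars2, and Mut male cell 9 had 9.15% and 10.3%. Mut female cells 7 and 9 had 14.1% and 9.08% Gm19220 with 5.50% and 3.97% Lars2, and Mut male cell 13 had 5.75% and 1.86%. Mut female cell 12 was unlike the others, with 0.723% Gm19220, 1.32% Lars2, 6253603 counts and 16.4% of them from mitochondrial protein genes. Because 8 of the 9 were Mut cells, filtering took more Gm19220-rich cells from Mut than from WT; with them in the sums, the log2 fold change of Gm19220 was -0.59 and that of Lars2 -1.18.

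In the 5 WT cells marked contaminated the order of the pair was turned in most cells. Lars2 had a median of 2.36% (1.80% to 5.59%) and Gm19220 of 1.68% (0.621% to 4.96%), and Gm19220 exceeded Lars2 in 1 of 5 cells. In unmarked cells it exceeded Lars2 in 51 of 62, and in 22 of the 28 WT cells among them. The ratio of Gm19220 to Lars2 counts had a median of 0.712 (0.344 to 1.09) in marked and 1.59 (0.456 to 5.98) in unmarked WT cells, so the ranges overlapped. The 4 marked male cells and 1 marked female cell are too few for a statement on contamination, whose basis is not given in the sources used here.

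The shares of the 2 rows rose and fell together from cell to cell. Over 62 cells the Pearson correlation of their log shares was 0.77 and Spearman's rho 0.77. Each group showed the same sign, with a rho of 0.57 in WT female, 0.65 in Mut female, 0.88 in WT male and 0.70 in Mut male cells. Without the 2 cells farthest from the median of Gm19220 the correlation was 0.75, and with each row's share taken of the counts without the other row it was 0.79. The points share a library total, and cells of 1 animal may be among them, so these are descriptions.

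Both shares were lower in cells with more counts. For Gm19220 the log share had a correlation of -0.68 (rho -0.71) with the log total, and within the groups rho ran from -0.90 in WT female to -0.65 in Mut male cells. For Lars2 it was -0.57 (rho -0.58), from -0.84 in WT male to -0.40 in Mut male cells. The total is the denominator of the share, but the counts themselves did not rise with the total. Their rho with the total was -0.46 for Gm19220 and -0.32 for Lars2. Within groups it ran from -0.63 in WT female to -0.27 in Mut male cells for Gm19220. For Lars2 it was -0.75 in WT male but -0.22 in WT female, -0.11 in Mut female and -0.075 in Mut male cells. Totals spanned a 4.10-fold range, while the counts of Gm19220 spanned 23.8-fold and those of Lars2 48.7-fold. The median total was 6331285 in WT female, 5927470 in Mut female, 6568786 in WT male and 7627878 in Mut male cells. The lower shares of Mut male cells thus went with larger totals, and those of Mut female cells with slightly smaller ones. The part of depth in the genotype difference was not tested.

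**Figure D3:**
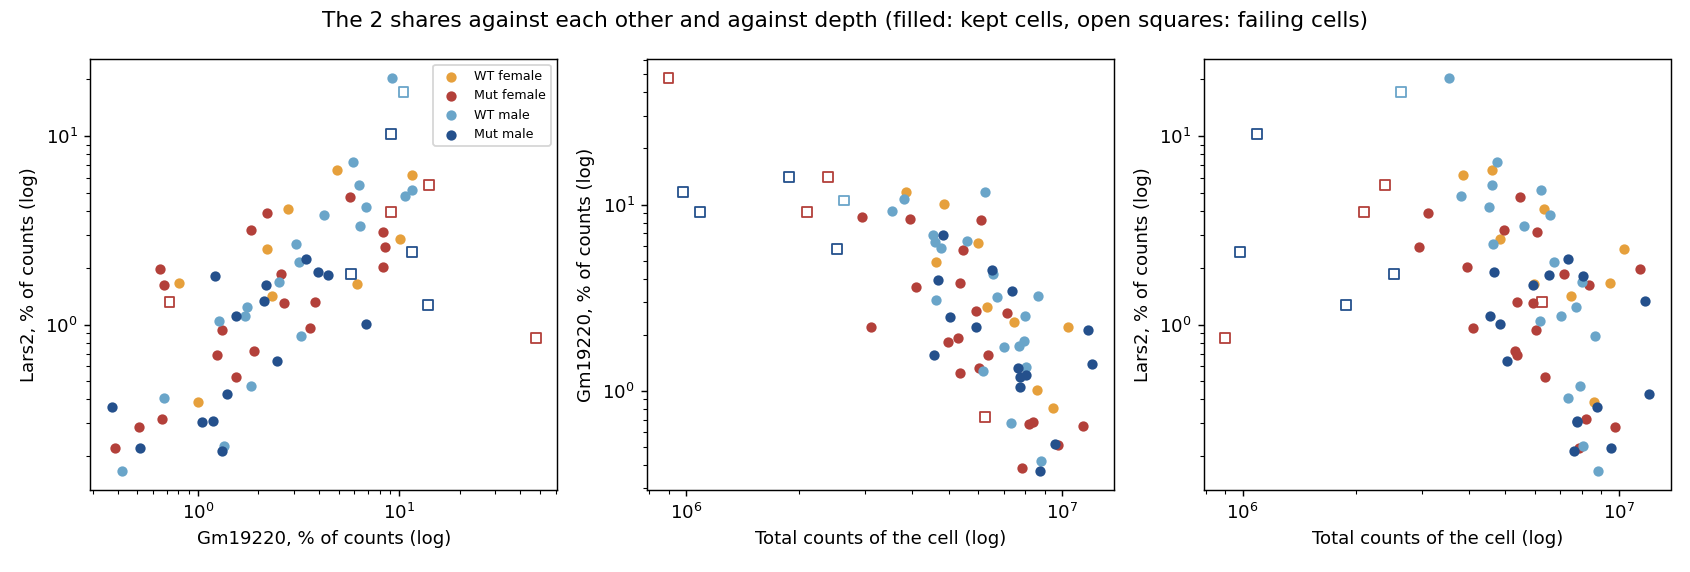
Lars2 share against Gm19220 share, and each share against the total counts of the cell, on log axes, with filled points for the 62 kept cells by group and open squares for the 9 failing cells. The shares rise together (rho 0.77) and fall with the total (rho -0.71 and -0.58).

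The mitochondrial share showed no such relation. Rows of the 13 mitochondrially encoded proteins took a median of 1.22% of the counts (0.0660% to 5.55%). Its rho with the share of Gm19220 was 0.01, and within groups it ran from -0.48 to 0.20. With Lars2, whose product works in the mitochondrion, rho was 0.20, from -0.17 in WT male to 0.58 in Mut female cells.

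The rows most like Gm19220 over cells were led by a row that carries the same run of C. Among 2344 other rows with a median of at least 25 CPM, Zrsr1 had the highest rho with Gm19220, at 0.97, and 0.93 to 0.97 within the groups. Zrsr1 stood at a median of 198 CPM (27.2 to 899), so that 132 Gm19220 counts stood beside each Zrsr1 count at the median, with a range of 68.1 to 194 over the 62 cells. In the 9 failing cells Zrsr1 had a median of 906 CPM (797 to 4248). Among them Mut female cell 12 had only 0.723% Gm19220, so its Gm19220 counts per Zrsr1 count lay below the range of the 62 cells. Next came Slc6a20b (rho 0.91), a member of the family of sodium-coupled transporters, AW822252 (0.89), Bhlhe41 (0.89), a repressor of the circadian clock, and Gm44487 (0.87).

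Grip2, the other row with such a run, was looked at after the sequence search and was not among these 5. Its rho with Gm19220 was 0.83, from 0.76 to 0.95 within the groups, and its median was 105 CPM (13.3 to 837). In 5 cells fewer than 100 Gm19220 counts stood beside each Grip2 count, against 268 at the median over all 62. Run lengths were also binned after the data were seen, over rows with a median of at least 1 CPM. The 4954 rows whose longest run of C or G was under 10 bases had a median rho of -0.00 with Gm19220, and 105 of them reached 0.7. The 7 rows with runs of 20 to 30 bases had a median rho of -0.00 and at most 0.35. Cdh3, a cadherin with a run of 27 C, lay below that minimum at a median of 0.770 CPM and had a rho of 0.75 with Gm19220. The 2 rows with 31 or more are Zrsr1 and Grip2.

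Genes that resemble Gm19220 outside the run could be compared with it only where they had counts. The best match over its length was Naa10, the catalytic subunit of the N-terminal acetyltransferase complex NatA, with 73.4% identity over 538 bases. Naa10 had a median of 1.46 CPM and a rho of -0.20 with Gm19220. Gm16286 matched 225 bases at 73.3%, with a median of 136 CPM and a rho of 0.05. Arhgap4 matched 232 bases at 75.9% and had no count in 42 of 62 cells. The related pseudogene Gm14274 and the gene Naa11 had no count in any of the 62 cells, and Gm5214 had none in 61, so their values show nothing about likeness.

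**Figure D4:**
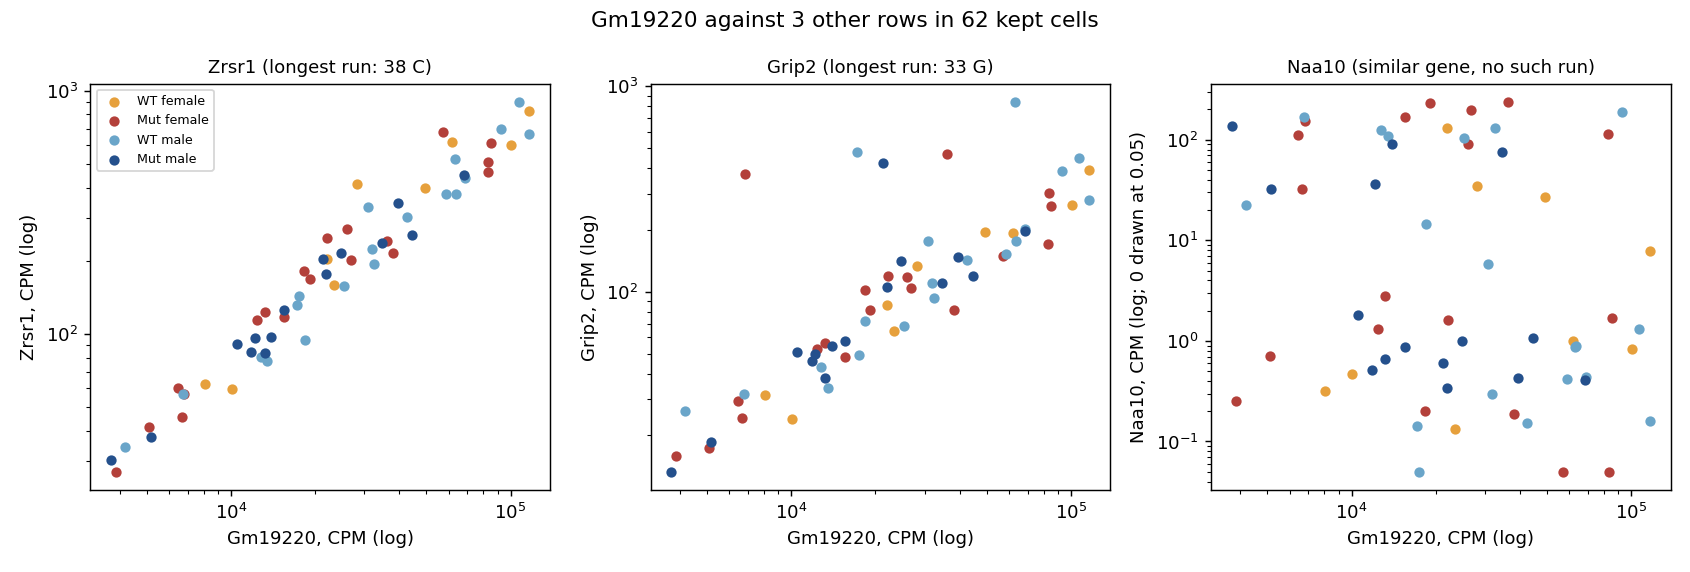
CPM (log axes) of Zrsr1, Grip2 and Naa10 against that of Gm19220 in the 62 kept cells, coloured by group; Naa10 values of 0 are drawn at 0.05. Zrsr1 lies along a narrow line (rho 0.97), Grip2 along the same kind of line with some cells above it (0.83), and Naa10 shows no such line (-0.20).

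The rows most like Lars2 carried no long match to its main transcript. They were Lipe, the hormone-sensitive lipase (rho 0.89), Gm47669 (0.88), Gm44487 (0.88), Asl, the argininosuccinate lyase of the urea cycle (0.85), and Slc6a20b (0.85). A sequence search with the main transcript of each row found 0 of these 5 similar to Lars2, and 1 of the 5 for Gm19220, which is Zrsr1. The other Lars2 transcripts were not searched in this way. The companions were in large part common to both rows. A rho of at least 0.7 was reached by 33 rows with Gm19220 and by 24 with Lars2, the pair itself aside. The 24 rows on both lists are 72.7% of the first and 100% of the second. No row reached -0.7 with either, and the median rho over the 2344 rows was -0.06 for both.

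At the other end of the order, the lowest rho with Gm19220 belonged to Tubb2a (-0.63), a tubulin, Zwint (-0.60), a kinetochore protein also expressed in neurons, Tuba1a (-0.55), Ndfip1 (-0.55), an adaptor of Nedd4 ubiquitin ligases, and Ndrg4 (-0.54). With Lars2 they were Zwint (-0.58), Ndrg4 (-0.54), Ndfip1 (-0.53), Vps35 (-0.47), a subunit of the retromer, and Slc25a3 (-0.44), the mitochondrial phosphate carrier. All shares of a cell sum to 100%, and what part this has in the negative values was not tested.

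The 8 rows of highest rho with either member were lower in the Mut sum of both sexes, as were 25% of all genes tested. In edgeR 0 of them passed, where 0% of all genes did. Their median log2 fold change was -0.73, with Lipe at -1.01 (SE 0.66), Zrsr1 at -0.80 (SE 0.38) and Bhlhe41 at -0.42 (SE 0.44). Since they were picked for moving with Gm19220 or Lars2 over the same cells, this is no separate evidence on genotype.

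Markers of other cell types were set beside the shares, and their part in them was not tested. The summed endothelial and mural markers had a rho of 0.75 with each row, carried by Pecam1, an adhesion protein of endothelial cells, at a median of 34.7 CPM and rho 0.79 with Gm19220. The other 6 endothelial and mural markers had medians at or near 0, and Cldn5 reached 10 CPM in 2 of 62 cells. The summed level ran from 14.4 to 191 CPM in WT female, 4.03 to 336 in Mut female, 3.36 to 512 in WT male and 5.74 to 254 CPM in Mut male cells. Red blood cell markers had a rho of 0.37 with Gm19220 and 0.38 with Lars2, microglial markers 0.15 and 0.21, and astrocyte markers 0.15 and 0.29. Pyramidal neuron markers had 0.06 and 0.09, oligodendrocyte lineage markers 0.08 and 0.17, and MGE interneuron markers -0.28 and -0.26. Of 22 symbols on a further list of ribosomal and other small structural RNAs, 3 had a row: Gm10800, Gm10801 and Gm21738. They were led by Gm10800 at a median of 76.5 CPM, with a rho of 0.72 with Gm19220 and 0.63 with Lars2. The other symbols of the list had no row and could not be examined. Whether the 3 rows hold ribosomal RNA reads was not tested.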

How the data were processed

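Per the submitters' processing notes the reads were quantified with kallisto on GRCm38, and no version is given in the sources used here. The authors deposited expected counts by gene symbol, in 1 table before and 1 after their quality filter, with identical values for shared cells. The deposited normalized table holds TPM. Of its samples only labelled cells were used, and 52 columns of the unfiltered and 44 of the filtered table were not used here. Nextera XT libraries keep no strand, so overlapping antisense transcripts cannot be told apart.

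A share is a row's counts as a percent of the cell's total, and CPM the same per 1000000. Counts were summed per group, rounded, and tested with edgeR 4.0.16 (filterByExpr, TMM, sex as a term, 1 residual degree of freedom, Benjamini-Hochberg threshold 0.05, R 4.3.3), with DESeq2 1.42.0 as an alternative. The fit was also run on simulated data, and the outcome is not reported here. GENCODE M21 matched 35338 rows and not 487; its transcripts were searched with blastn 2.17.0 (e-value limit 1e-05) and for shared 31-base words. Sequences come from these transcripts. The p-values measure the spread between 4 sums, which may be technical, with a variance that edgeR partly borrows from other genes (prior degrees of freedom 3.60). The SE beside an edgeR fold change is its absolute value divided by the square root of the F statistic, so it rests on the same variance.

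The members and gene lists were chosen with earlier results of these data known. Named rows are the 10 highest by median share, the 5 highest and 5 lowest in rho with each member among rows at 25 CPM or more, up to 4 of each list by median CPM, and sequence matches; a few rows that ranking takes are not reported here. Further markers are named for checks and were chosen after their values were seen.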

Additional observations from a re-analysis of the deposited data

Results flagged for a closer look

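In the 4 failing Mut female cells, cell 12 stood apart in its mitochondrial share. It had 16.4% of its counts from mitochondrial protein genes, and the other 3 had 1.03% to 1.91%. Its Gm19220 share of 0.723% was the lowest of all 9 failing cells.

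In the 4 failing Mut male cells, cell 9 stood apart in Lars2. It had 10.3% of its counts from Lars2, and the other 3 had 1.27% to 2.42%.

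In both cases the gap to the nearest cell exceeded Dixon's 95% critical value for 4 samples (0.829). Of 16 combinations of group and measure tested these were the 2 past it, and chance flags about 1 in 20.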

How the results depend on the processing

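Of 156 values from alternative settings for 37 results, 11 moved by more than the spread between cells or groups or, for the count of called genes, away from 0. The other 145 moved by less or, for a tested fold change, stayed on the same side of the threshold. No fold change or ratio between genotypes, and no relation of the shares to each other or to the total, changed sign, while the weak relations to the mitochondrial share did within some groups. No gene was called by edgeR under any of its settings, with adjusted p from 0.377 to 1 for both members, whereas DESeq2 called 666. The cause was not tested. TPM divides by length and so changed the size of every median share: for Gm19220 it was 5.86% in WT female, 4.31% in Mut female, 7.43% in WT male and 3.44% in Mut male cells, and for Lars2 0.889%, 0.509%, 0.788% and 0.379% in the same order. Both stayed lower in Mut in each sex. The relation of the 2 shares had a Pearson r of 0.598 on linear values and a rho of 0.567 within WT female cells. The rho with the total was -0.90 for Gm19220 within WT female and -0.842 for Lars2 within WT male cells. The rho with the mitochondrial share was -0.483 for Gm19220 within WT female and -0.347 within WT male cells, and 0.581 for Lars2 within Mut female and -0.168 within WT male cells.

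Each sum was also left out in turn, in fits without the sex term. The log2 fold change then ran from -0.95 to -0.66 for Gm19220 and from -1.53 to -0.89 for Lars2. The lone sum of a genotype is of 1 sex, so sex and genotype are partly mixed in these fits. That lone sum is assumed to vary like the sums of the other genotype. Leaving out the cells richest in a member, or adding cells marked contaminated, kept both lower in Mut, and with marked cells the unadjusted p of Gm19220 in edgeR was 0.0729. Leaving out each cell in turn, added after seeing the data, gave -0.95 to -0.57 for the Lars2 share in the female and -1.05 to -0.71 for the Gm19220 share in the male sums. With library totals in place of TMM the median of all genes moved by 0.08 (log2), and the fold changes were -0.75 and -1.14. With cells failing the filter, the rho with the total was -0.77 for Gm19220 and -0.57 for Lars2.

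No paired analysis was possible because replicate numbers only follow the order of the labels and pair no cells. No labelled cell had fewer than 7613 counts of either member, and the part of depth in their shares was not tested. The comparison of genotypes is limited by the number of independent groups.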

Other observations

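The number in each cell's title, whose meaning the labels do not give, was higher in cells with lower shares of both rows. Over 62 cells its Spearman rho was -0.68 with the Gm19220 share and -0.63 with the Lars2 share, and it was negative within each of the 4 groups, from -0.68 to -0.38 for Gm19220 and from -0.61 to -0.32 for Lars2. Whether the number follows the order of collection or library preparation was not tested. The genotypes were not spread evenly over it, and its part in the genotype difference was not tested.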
